A study of Homo sapiens with 3 samples.

Results

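Knockdown of HNRNPU and knockdown of DIS3L2 were compared directly with each other by sequencing RNA of PLC cells, a human cell line derived from a hepatocellular carcinoma. The comparison used 2 of the 3 libraries of the study: shhnRNP U, from cells infected with viruses carrying short hairpin RNAs against HNRNPU, and shDIS3L2, from cells that received hairpins against DIS3L2. The third library, NTC, came from cells with a non-targeting hairpin. All cells carried a hairpin virus and were harvested 48 hours after infection. Each group was 1 library, so no difference has a replicate check and no p-value was computed. The sources used here do not give the number of hairpins per target. The NTC level of a named gene is printed beside the knockdown levels as background, without a ratio. A ratio between the knockdowns does not tell which of them departs from NTC.

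HNRNPU encodes hnRNP U, also called scaffold attachment factor A, an abundant nuclear protein that binds RNA and chromatin and takes part in pre-mRNA splicing. DIS3L2 encodes a cytoplasmic 3′ to 5′ exoribonuclease that works apart from the exosome and degrades RNAs tailed with uridines, among them precursors of let-7 microRNAs and faulty structured noncoding RNAs. Hepatocellular carcinoma cells keep parts of the hepatocyte programme, such as the synthesis of plasma proteins and apolipoproteins. The study asked how both proteins act on splicing in liver cancer. The values here are per gene and do not resolve isoforms.

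Levels are FPKM, fragment counts scaled by transcript length and by library depth, as deposited, and a range in parentheses after a level is its deposited interval. Names were matched in both libraries by gene name and overlapping locus, which gave 52058 names. Of these, 10717 loci lay above 0 in both libraries with a mean of at least 1 FPKM and are called tested below. Log2 ratios are shhnRNP U over shDIS3L2 with 1 added to each FPKM, so a positive value means more RNA in shhnRNP U. A locus passed the size rule when the ratio reached 1 or -1 and the intervals of the libraries did not overlap. Depth, estimated from single-exon genes, was about 19.6 M fragments in shhnRNP U and 18 M in shDIS3L2. The interval reached a median of 11.5% of the level to either side in shhnRNP U and 11.8% in shDIS3L2. These intervals cover the estimate within a library and not the variation between cultures.

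The targeted genes differed in the directions that the labels name. HNRNPU (hg19, chromosome 1, 245003940 to 245027850) had a level of 33.5 FPKM (31.8 to 35.2) in shhnRNP U, 232 (224 to 241) in shDIS3L2 and 178 in NTC. Its log2 ratio was -2.76, and its locus was merged with the antisense gene HNRNPU-AS1, from which it cannot be told apart without strand. DIS3L2 (chromosome 2, 232825955 to 233209060), merged with a clone-named gene, had a level of 11.2 FPKM (10.04 to 12.4) in shhnRNP U, 3.23 (2.31 to 4.15) in shDIS3L2 and 7.61 in NTC, a log2 ratio of 1.53. Each target was thus lowest in its own knockdown. RAC1, a small GTPase of the actin cytoskeleton whose splicing the study examined (chromosome 7, 6414154 to 6443608), stood at 590.5 FPKM (568 to 613) in shhnRNP U, 672 (647 to 697) in shDIS3L2 and 368 in NTC, a log2 ratio of -0.19. RAC1 therefore did not pass the size rule at the gene level.

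Of the 10717 tested loci, 1741 (16.2%) passed the size rule. In shhnRNP U, 832 (7.76%) were higher and 909 (8.48%) were lower than in shDIS3L2, while 8976 passed in neither direction. The median log2 ratio was 0.04, with quartiles of -0.44 and 0.50, so the libraries were centred alike as deposited. Across these loci log2 FPKM correlated at a Pearson r of 0.917, a value across genes, which are not independent replicates. At a log2 ratio of 2 or more either way, 71 loci were higher and 112 lower in shhnRNP U. Another 138 loci had ratios of the required size but overlapping intervals. Of the tested loci, 1311 carried several gene names, 2889 overlapped another expressed locus and 213 had unlike assembled bounds in the libraries. Over the 6881 loci free of all of these, 501 were higher (7.28%) and 601 lower (8.73%). The target HNRNPU overlapped another expressed locus in shhnRNP U, and DIS3L2 did in shDIS3L2. Of the genes below that passed, TLN1, LAMB1, TXNRD1, CCNG1, CFLAR, CRIM1, NDUFA3, NDUFS7, PABPC1, PSME2, NCAPD2, SREBF1, PFKM, DHX38, MRPL49, EIF2S2, HIST1H2BK, CLK3, SRPK2, MAU2, RTN4RL2, NRP2, DNAJC7, ZNF98 and LYZ overlapped another expressed locus, as did others marked where they are described. LAMB3, CFLAR, RPLP2, SNRPD3 and MT1X shared their locus with a further name. Genes below that did not pass are not marked in this way. Their levels can include those of further names, as at the loci of ACTB, KRT18 and RPS29. When the libraries were rescaled by the median of their ratios, which shifts each ratio by a small amount, several named genes close to the size rule no longer passed, among them EIF4A3, FOXA3, GADD45B, IFI6, INCENP, MRPL17, NDUFS7, RFC5 and SEL1L.

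The ribosomal RNA cluster on the unplaced sequence GL000220.1 held the highest ratio of all tested loci. There a merged locus of 3 clone-named genes (AL592188.1,AL592188.5,AL592188.6) stood at 79593 FPKM (73643 to 85543) in shhnRNP U, 6.93 (4.93 to 8.92) in shDIS3L2 and was listed at 0 in NTC, a log2 ratio of 13.29, with assembled bounds that differed between the libraries. The neighbouring locus that merges RNA18S5 and RNA28S5 stood at 142 FPKM in shhnRNP U and 18.4 in shDIS3L2, with intervals that reached 0 and overlapped. RNA5-8S5, the 5.8S gene, stood at 2.58e+06 FPKM in shhnRNP U, 2.07e+06 in shDIS3L2 and 1.03e+06 in NTC. These levels lay far above those of the other genes named here. The intervals of the knockdown libraries did not overlap, but it did not pass, at a log2 ratio of 0.32. The part of ribosomal RNA in the ratios of other genes was not tested.

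**Figure D1:**
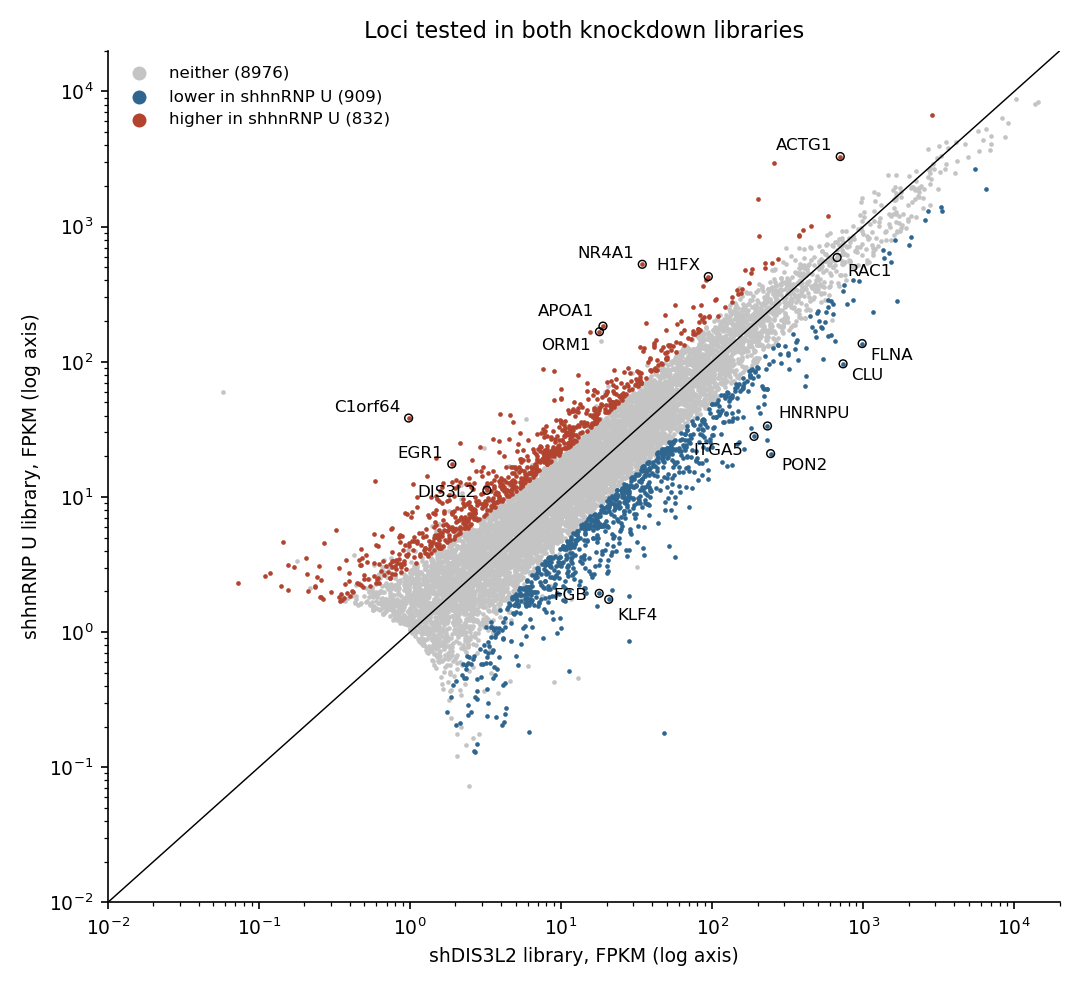
Level of the tested loci in the shDIS3L2 library (x axis) and the shhnRNP U library (y axis), both in FPKM on log axes, with the line of equal levels. Loci beyond the axis limits, among them RNA5-8S5 and the locus with the highest ratio of all, are not drawn. The counts that follow include them. Red points (832) and blue points (909) passed the size rule as higher or lower in shhnRNP U, grey points (8976) did not, and HNRNPU and DIS3L2 lie on opposite sides of the line.

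Among 46 gene lists of pathways, complexes and families, 13 had at least 5 members past the size rule in a direction and at least 3 times as many as in the other. Of these, 3 leaned higher in shhnRNP U: plasma carrier and acute-phase proteins, glycolysis and hypoxia genes, and X-linked cancer-testis genes. The other 10 leaned lower in shhnRNP U, or higher in shDIS3L2: matrix and mesenchymal genes, actin and focal adhesion genes, annexins and S100 proteins, NF-kB genes, integrated stress response genes, NRF2 and aldo-keto reductase genes, apoptosis regulators, cytosolic ribosomal proteins, proteasome subunits, and a list of small nucleolar RNA hosts and transcripts sensitive to nonsense-mediated decay. Several lists share genes, so their counts are not separate. This criterion counts calls and not shares, so a long list can meet it near the share of all loci. Of cytosolic ribosomal proteins 11.7% were lower, against 8.48% over all tested loci. Apoptosis regulators had 17.2% lower but a median log2 ratio of 0.10, against 0.04 over all tested loci.

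**Figure D2:**
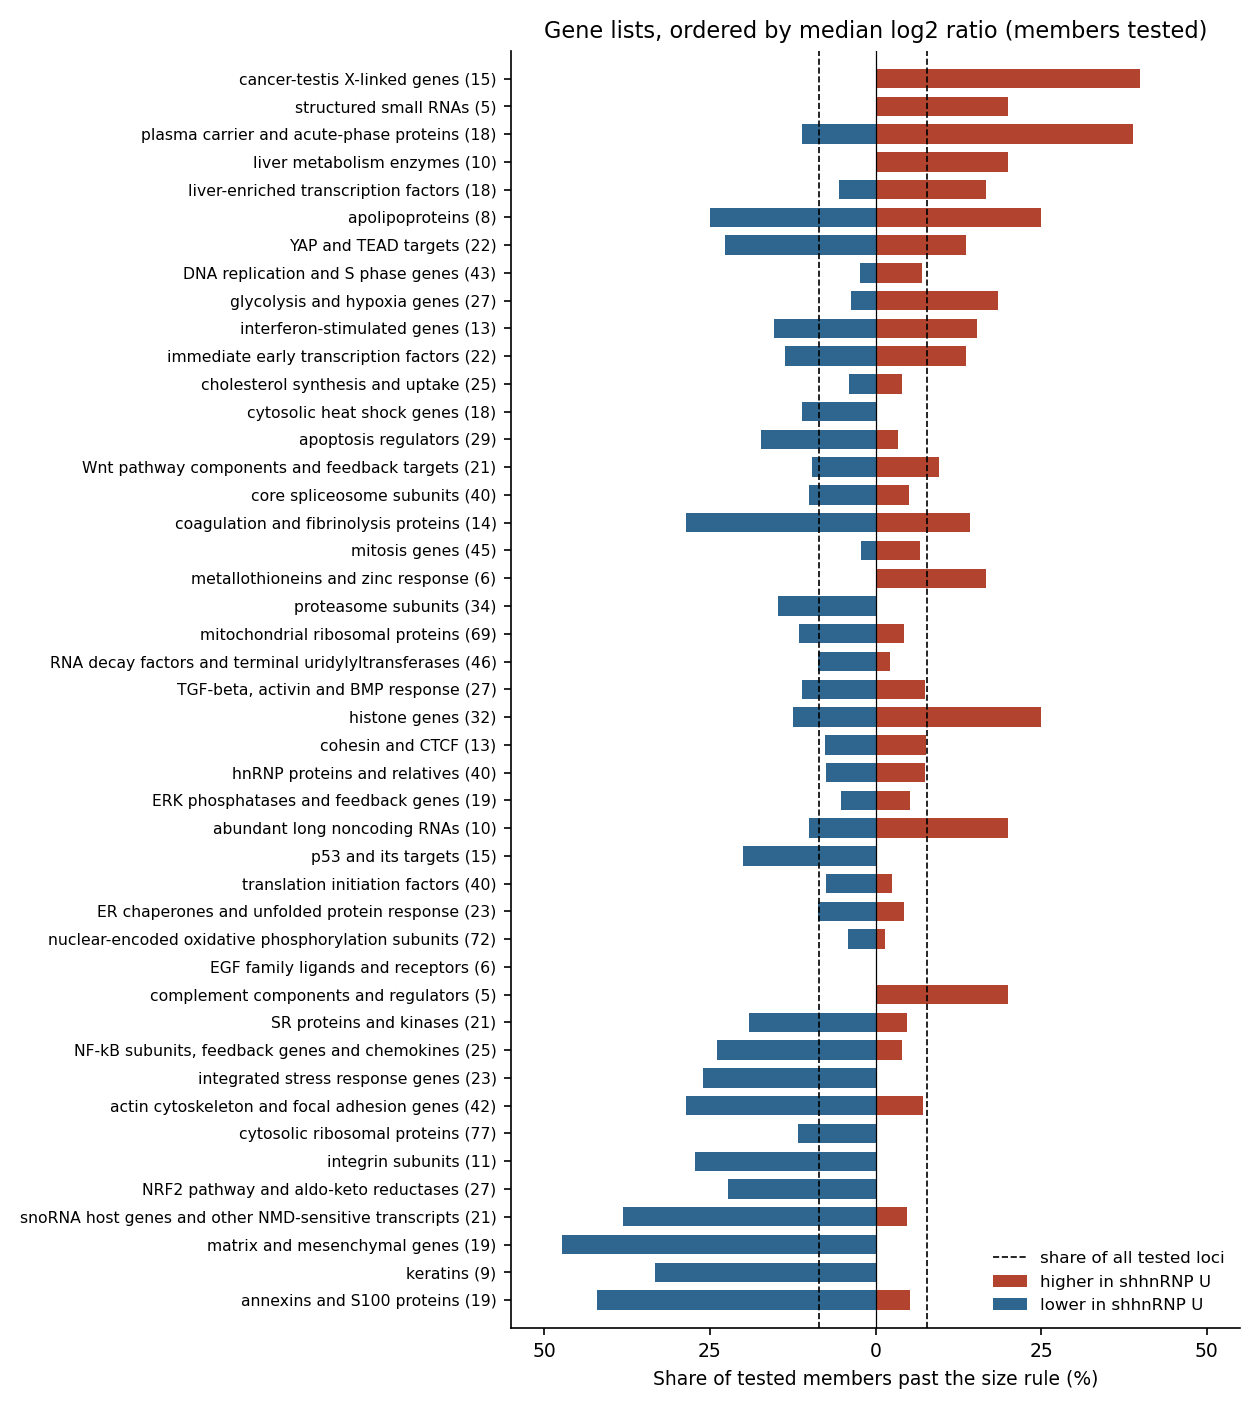
Share of the tested members of each list past the size rule (x axis, percent), red to the right for higher and blue to the left for lower in shhnRNP U, for lists with at least 5 tested members (their number in parentheses), ordered by the median log2 ratio. Dashed lines mark the shares over all tested loci, 7.76% higher and 8.48% lower, and the annexins and S100 proteins, keratins and matrix genes lie at the bottom of the order.

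Transcripts of plasma carriers and acute-phase proteins, which hepatocytes secrete into blood, were among the lists that leaned higher in shhnRNP U. Of 18 tested loci, 7 were higher, 2 were lower and 9 passed in neither direction, with a median log2 ratio of 0.64. ORM1, which encodes the acute-phase carrier orosomucoid, stood at 167 FPKM (157 to 177) in shhnRNP U, 17.96 (15.2 to 20.7) in shDIS3L2 and 186 in NTC, a log2 ratio of 3.15. Its near-identical neighbour ORM2 stood at 41.3 FPKM (37.1 to 45.6) in shhnRNP U, 3.94 (2.67 to 5.21) in shDIS3L2 and 48.6 in NTC, a log2 ratio of 3.10, and the pair can share reads. AHSG, which encodes fetuin-A, an inhibitor of calcification, stood at 19.5 FPKM (17.7 to 21.3) in shhnRNP U, 1.49 (1.01 to 1.97) in shDIS3L2 and 20.9 in NTC, a log2 ratio of 3.04. In these 3 genes shDIS3L2 was the low library and the intervals of shhnRNP U lay far above it. ALB, the serum albumin gene, had a low level in every library, at 5.21 FPKM (3.36 to 7.07) in shhnRNP U, 0.856 (0 to 2.38) in shDIS3L2 and 11.8 in NTC, a log2 ratio of 1.74. RBP4, the plasma carrier of retinol, is added here after its values were seen and stood at 542 FPKM (521 to 562) in shhnRNP U, 225 (214 to 237) in shDIS3L2 and 845 in NTC, a log2 ratio of 1.26. The lower loci included the merged serum amyloid genes SAA2 and SAA4, at 66.7 FPKM (60.6 to 72.7) in shhnRNP U, 215 (202 to 228) in shDIS3L2 and 341 in NTC, a log2 ratio of -1.67. The other lower locus, chosen after its values were seen, merged the acute-phase gene LRG1 with PLIN5 and a clone-named gene (18.2 against 43.6 FPKM, log2 ratio -1.21). AMBP, the precursor of alpha-1-microglobulin and an abundant member, passed in neither direction (2309.7 against 2671 FPKM, log2 ratio -0.21). Over the 11 loci with 1 name, like bounds and no overlapping gene, 6 were higher and 0 lower.

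Apolipoproteins split, with 2 of 8 higher, 2 lower and 4 in neither direction (median 0.45). APOA1, which forms the protein core of high-density lipoprotein (chromosome 11, 116706467 to 116708666), stood at 184 FPKM (175 to 193) in shhnRNP U, 18.9 (16.6 to 21.3) in shDIS3L2 and 311 in NTC, a log2 ratio of 3.21. APOC3, which slows the clearance of triglyceride-rich lipoproteins and lies beside APOA1 (116700422 to 116703788), stood at 89.0 FPKM (79.8 to 98.2) in shhnRNP U, 7.59 (3.88 to 11.3) in shDIS3L2 and 109 in NTC, a log2 ratio of 3.39. Both neighbours were high in shhnRNP U and NTC and low in shDIS3L2. CLU, which encodes the secreted chaperone clusterin, went the other way and stood at 96.6 FPKM (91.7 to 101) in shhnRNP U, 736 (714 to 758) in shDIS3L2 and 299 in NTC, a log2 ratio of -2.92. APOL2 was also lower (6.82 against 14.99 FPKM, log2 ratio -1.03). APOB, the core protein of low-density lipoprotein, was near even at 8.08 in shhnRNP U and 9.28 in shDIS3L2. Of the clade A serpins, 1 of 4 passed: SERPINA1, alpha-1-antitrypsin, stood at 6709.8 FPKM (6432 to 6988) in shhnRNP U, 2865 (2745 to 2984) in shDIS3L2 and 11439 in NTC, a log2 ratio of 1.23.

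Coagulation and fibrinolysis genes also split, with 2 of 14 higher, 4 lower and 8 in neither direction, around a median of 0.05. FGB, the fibrinogen beta chain, stood at 1.93 FPKM (1.002 to 2.87) in shhnRNP U, 17.9 (15.9 to 19.9) in shDIS3L2 and 6.21 in NTC, a log2 ratio of -2.69. FGG, the gamma chain, stood at 8.91 FPKM (7.37 to 10.5) in shhnRNP U, 37.1 (34.4 to 39.9) in shDIS3L2 and 19.1 in NTC, a log2 ratio of -1.94. FGA, the alpha chain, did not pass (195 against 298 FPKM, log2 ratio -0.61), so the most abundant fibrinogen chain stood apart from the other chains in the size of its ratio. PROS1, the anticoagulant protein S, stood at 3.13 FPKM (2.55 to 3.72) in shhnRNP U, 17.7 (16.4 to 19.04) in shDIS3L2 and 14.4 in NTC, a log2 ratio of -2.18. F5, coagulation factor V, named after its values were seen, was lower too (1.10 against 3.21 FPKM, log2 ratio -1.003). The higher genes were F2, prothrombin, at 34.6 FPKM (32.2 to 37.0) in shhnRNP U, 14.7 (13.2 to 16.2) in shDIS3L2 and 51.8 in NTC, a log2 ratio of 1.18, and KNG1, kininogen, at 2.59 FPKM (2.01 to 3.17) in shhnRNP U, 0.110 (0 to 0.270) in shDIS3L2 and 6.53 in NTC, a log2 ratio of 1.70. SERPINF2, the plasmin inhibitor alpha-2-antiplasmin, did not pass (102 against 56.4 FPKM, log2 ratio 0.85). Of 5 tested complement genes, C5 alone passed, as higher (2.71 against 0.764 FPKM, log2 ratio 1.07).

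**Figure D3:**
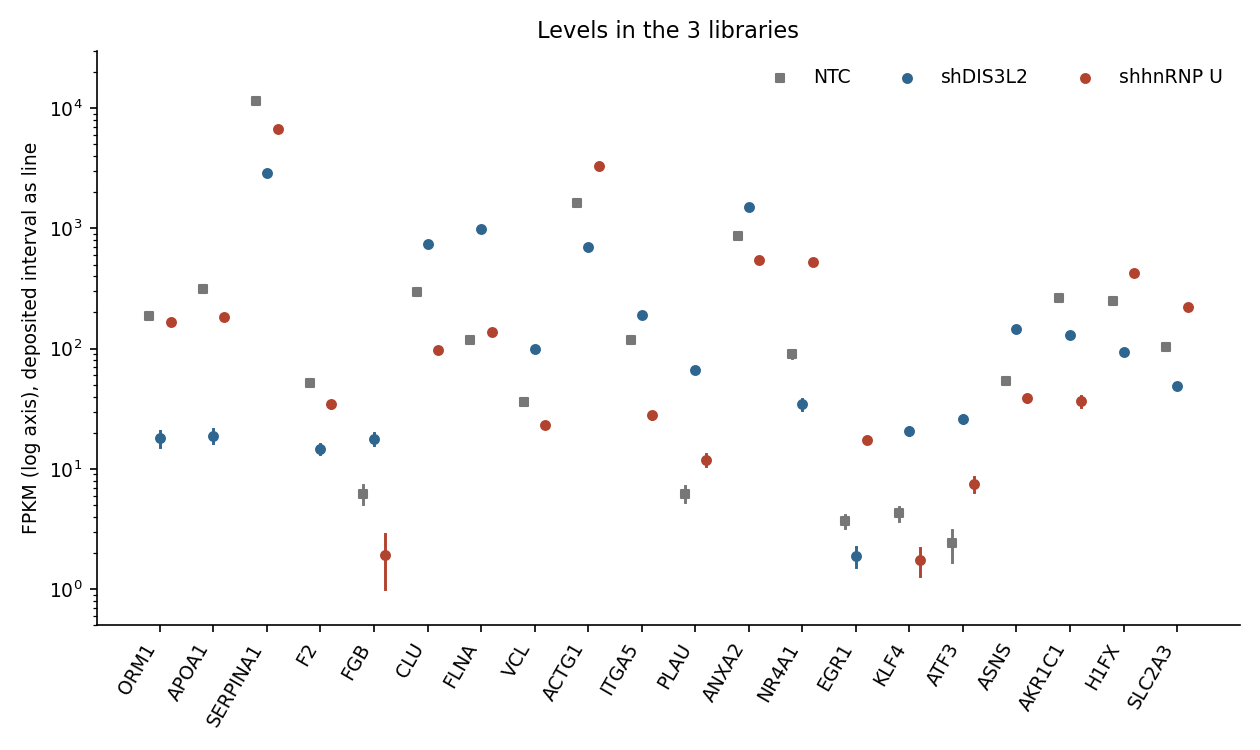
Level of 20 genes described in the text (x axis) in each library, in FPKM on a log axis, with the deposited interval as a vertical line, where visible. Grey squares are NTC, blue circles shDIS3L2 and red circles shhnRNP U, and ORM1, APOA1, SERPINA1 and F2 have their lowest point in shDIS3L2, while FGB, CLU, ITGA5, KLF4 and AKR1C1 have theirs in shhnRNP U.

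Of 18 liver-enriched transcription factors, 3 were higher in shhnRNP U, 1 was lower and 14 passed in neither direction, with a median of 0.46. Their transcripts were rich in GC, at a median of 58.7%, and after the median of each GC decile was subtracted the list median was 0.11. FOXA3, a pioneer factor of hepatocytes, stood at 24.5 FPKM (22.6 to 26.5) in shhnRNP U, 11.6 (10.3 to 12.9) in shDIS3L2 and 27.1 in NTC, a log2 ratio of 1.02. CREB3L3, a membrane-bound factor that drives fasting genes, stood at 4.02 FPKM (3.31 to 4.72) in shhnRNP U, 0.903 (0.443 to 1.36) in shDIS3L2 and 7.74 in NTC, a log2 ratio of 1.399. ONECUT1, also called HNF6, was higher at 27.0 against 8.61 FPKM, log2 ratio 1.55, with assembled bounds that differed between the libraries. NR0B2, the corepressor SHP that bile acid signalling induces, was the lower gene, at 4.03 FPKM (3.10 to 4.96) in shhnRNP U, 27.1 (24.4 to 29.8) in shDIS3L2 and 11.9 in NTC, a log2 ratio of -2.48, and overlapped another expressed gene. HNF4A, a master regulator of hepatocyte genes named after its values were seen, did not pass (45.8 against 29.8 FPKM, log2 ratio 0.60), and neither did CEBPB (225 against 164 FPKM, log2 ratio 0.45) or FOXA2 (57.2 against 34.2 FPKM, log2 ratio 0.73). Of 10 liver metabolism enzymes, 2 were higher and 0 lower (median 0.51). ASS1, argininosuccinate synthase of the urea cycle, stood at 939 FPKM (899 to 979.6) in shhnRNP U, 399 (381 to 418) in shDIS3L2 and 963 in NTC, a log2 ratio of 1.23. G6PC, glucose-6-phosphatase, stood at 2.18 FPKM (1.68 to 2.68) in shhnRNP U, 0.140 (0 to 0.492) in shDIS3L2 and 27.2 in NTC, a log2 ratio of 1.48, so both knockdown levels lay far below that of NTC.

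The actin cytoskeleton and focal adhesion genes were lower in shhnRNP U in 12 of 42, higher in 3 and in neither direction in 27, with a median of -0.30. FLNA, the actin crosslinker filamin A (chromosome X, 153576892 to 153603006), stood at 136 FPKM (132 to 141) in shhnRNP U, 984 (949.6 to 1019) in shDIS3L2 and 118 in NTC, a log2 ratio of -2.84. FHL2, a LIM-domain cofactor at focal adhesions, stood at 0.977 FPKM (0.478 to 1.48) in shhnRNP U, 9.42 (8.12 to 10.7) in shDIS3L2 and 0.374 in NTC, a log2 ratio of -2.40. VCL, which encodes vinculin and links integrins to actin, stood at 23.3 FPKM (21.9 to 24.7) in shhnRNP U, 99.6 (94.7 to 104) in shDIS3L2 and 36.3 in NTC, a log2 ratio of -2.05. For FLNA and FHL2 shDIS3L2 was the highest of the 3 libraries and NTC the lowest. MYL12A, a regulatory myosin light chain whose locus was merged with a second name and overlapped another gene, stood at 155 FPKM (146 to 163) in shhnRNP U and 588 (566 to 609) in shDIS3L2, a log2 ratio of -1.92. ACTG1, cytoplasmic gamma actin, went the other way at 3297 FPKM (3188 to 3407) in shhnRNP U, 705 (674 to 735) in shDIS3L2 and 1631 in NTC, a log2 ratio of 2.22, with a second clone-named gene merged into its locus. The other higher genes, named after their values were seen, were ROCK1, a kinase that activates myosin (20.51 against 7.74 FPKM, log2 ratio 1.30), and TLN1, talin (104 against 49.6 FPKM, log2 ratio 1.06). ACTB, beta actin, did not pass at 4107 in shhnRNP U and 6989 in shDIS3L2, and PFN1, the actin-binding profilin, did not either (5235 against 6541 FPKM, log2 ratio -0.32). The loci of these actin isoforms thus ran in opposite order, with a log2 ratio of -0.77 for that of ACTB. A clone-named gene was merged into the ACTB locus too, and how reads that fit several places were counted is not stated.

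Matrix and mesenchymal genes had 9 of 19 lower in shhnRNP U, 0 higher and 10 in neither direction (median -0.61). LAMB3, a chain of the basement membrane laminin-332, stood at 6.43 FPKM (4.91 to 7.94) in shhnRNP U, 43.9 (40.6 to 47.2) in shDIS3L2 and 6.17 in NTC, a log2 ratio of -2.60. PLAU, urokinase, which activates plasminogen (chromosome 10), stood at 11.9 FPKM (10.6 to 13.2) in shhnRNP U, 67.0 (63.3 to 70.6) in shDIS3L2 and 6.23 in NTC, a log2 ratio of -2.40. CD44, a receptor for hyaluronan, stood at 3.99 FPKM (2.47 to 5.51) in shhnRNP U, 23.1 (20.9 to 25.4) in shDIS3L2 and 5.93 in NTC, a log2 ratio of -2.27. VIM, the intermediate filament vimentin, stood at 113 FPKM (107 to 119) in shhnRNP U, 318 (303 to 333) in shDIS3L2 and 113 in NTC, a log2 ratio of -1.49. In LAMB3 and VIM the shhnRNP U interval contained the NTC level. LAMB1, a further laminin chain, was lower as well (10.2 against 33.3 FPKM, log2 ratio -1.62). TIMP1, an inhibitor of matrix metalloproteinases and the most abundant member that did not pass, stood at 238 in shhnRNP U and 213 in shDIS3L2. Of the integrins, which bind matrix at the cell surface, 3 of 11 were lower and 0 higher (median -0.51). ITGA5, the alpha chain of the fibronectin receptor, stood at 28.0 FPKM (26.1 to 29.9) in shhnRNP U, 189 (182 to 197) in shDIS3L2 and 118 in NTC, a log2 ratio of -2.71. ITGB5 was lower too (104 against 370.3 FPKM, log2 ratio -1.82), as was ITGA6 (3.13 against 7.79 FPKM, log2 ratio -1.09). ITGB1, the common beta chain, did not pass (189 against 212 FPKM, log2 ratio -0.17).

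Annexins and S100 proteins, which bind calcium and often membranes, had the lowest median of the lists with at least 5 tested members, -0.97. Of 19 members, 8 were lower, 1 was higher and 10 passed in neither direction. ANXA3 stood at 7.10 FPKM (5.85 to 8.35) in shhnRNP U, 56.4 (52.4 to 60.5) in shDIS3L2 and 15.1 in NTC, a log2 ratio of -2.83. S100A4, linked to cell motility, stood at 3.42 FPKM (1.92 to 4.92) in shhnRNP U, 18.2 (14.9 to 21.4) in shDIS3L2 and 8.39 in NTC, a log2 ratio of -2.12, and overlapped another gene. S100A10, the partner of annexin A2 at the plasma membrane, stood at 225 FPKM (212 to 237) in shhnRNP U, 634 (607 to 660.2) in shDIS3L2 and 845 in NTC, a log2 ratio of -1.49. ANXA2 itself, added after its values were seen, stood at 544 FPKM (519 to 568) in shhnRNP U, 1516 (1451 to 1581) in shDIS3L2 and 871 in NTC, a log2 ratio of -1.48, so the pair ran in the same order. S100P was lower at 39.3 against 160.0 FPKM, log2 ratio -1.999. S100A9, a subunit of calprotectin, was the higher gene, at 53.4 FPKM (47.8 to 58.9) in shhnRNP U, 9.95 (7.47 to 12.4) in shDIS3L2 and 25.4 in NTC, a log2 ratio of 2.31. ANXA5 did not pass (356 against 415 FPKM, log2 ratio -0.22). Of 9 keratins, the intermediate filaments of epithelia, 3 were lower and 0 higher (median -0.69). KRT81, a hair keratin, was lower at 18.01 FPKM (16.1 to 19.9) in shhnRNP U, 116 (109.8 to 123) in shDIS3L2 and 7.90 in NTC, a log2 ratio of -2.63, and KRT7, typical of bile duct cells, at 6.08 FPKM (3.92 to 8.25) in shhnRNP U, 32.2 (27.2 to 37.2) in shDIS3L2 and 7.04 in NTC, a log2 ratio of -2.23. Both overlapped another expressed gene, and KRT15 was lower without such an overlap (1.58 against 5.85 FPKM, log2 ratio -1.41). The hepatocyte keratins KRT8 (2373 against 2006 FPKM, log2 ratio 0.24) and KRT18 (1856 against 1576 FPKM, log2 ratio 0.24) did not pass.

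**Figure D4:**
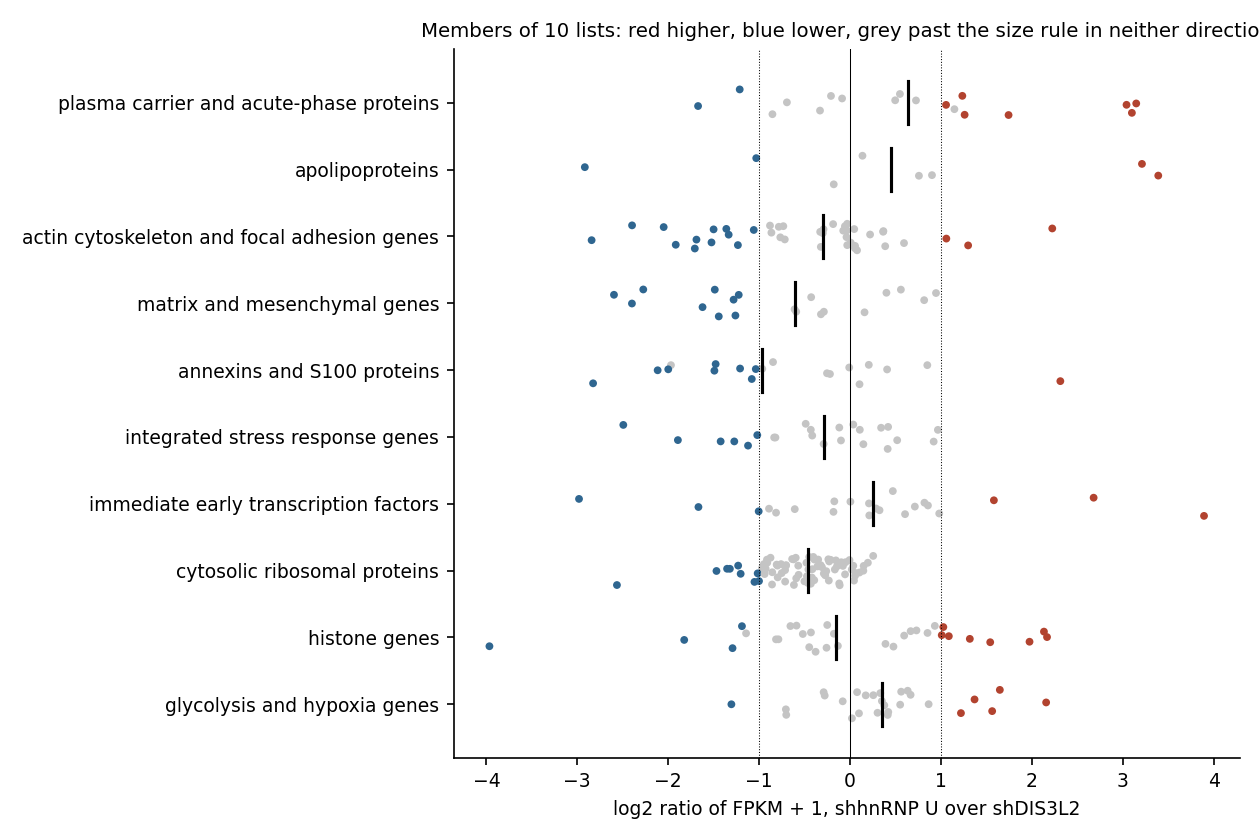
Log2 ratio of each tested member of 10 lists (x axis, shhnRNP U over shDIS3L2, FPKM plus 1), 1 point per locus, red for higher, blue for lower and grey for neither, with a black bar at the list median and dotted lines at -1 and 1. The bars of the annexins and S100 proteins (-0.97), matrix genes (-0.61) and cytosolic ribosomal proteins (-0.46) lie below 0, and that of plasma carriers and acute-phase proteins (0.64) above.

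NF-kB subunits, feedback genes and chemokines were lower in shhnRNP U in 6 of 25, higher in 1 and in neither direction in 18 (median -0.27). BCL2A1, an anti-apoptotic relative of BCL2 that NF-kB induces, stood at 2.57 FPKM (1.68 to 3.46) in shhnRNP U, 16.05 (13.8 to 18.3) in shDIS3L2 and 0.349 in NTC, a log2 ratio of -2.26. CXCL5, a chemokine for neutrophils, stood at 36.0 FPKM (33.7 to 38.3) in shhnRNP U, 117 (112 to 123) in shDIS3L2 and 50.8 in NTC, a log2 ratio of -1.68. LIF, a cytokine of the interleukin-6 family, stood at 1.59 FPKM (1.19 to 1.99) in shhnRNP U, 6.66 (5.96 to 7.36) in shDIS3L2 and 0.849 in NTC, a log2 ratio of -1.56. TRAF1 (1.17 against 4.64 FPKM, log2 ratio -1.38) and BIRC3 (5.95 against 15.6 FPKM, log2 ratio -1.26), signalling proteins of the tumour necrosis factor pathway, were lower as well. The higher gene was the chemokine CXCL1 (109 against 50.1 FPKM, log2 ratio 1.10), so chemokines of the same receptor ran in opposite order. IL32 (1364 against 1607 FPKM, log2 ratio -0.24) and CCL20 (168 against 257 FPKM, log2 ratio -0.61) were the most abundant that did not pass.

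The integrated stress response, in which phosphorylated eIF2 raises translation of ATF4, had 6 of 23 genes lower in shhnRNP U, 0 higher and 17 in neither direction (median -0.29). ATF4 itself stood at 336 FPKM (321 to 352) in shhnRNP U, 733 (700.5 to 766) in shDIS3L2 and 393 in NTC, a log2 ratio of -1.12. CHAC1, a target of ATF4 that breaks down glutathione, stood at 15.9 FPKM (14.03 to 17.8) in shhnRNP U, 94.4 (89.2 to 99.5) in shDIS3L2 and 28.6 in NTC, a log2 ratio of -2.49. ASNS, asparagine synthetase, stood at 38.5 FPKM (35.8 to 41.2) in shhnRNP U, 146 (139.6 to 152) in shDIS3L2 and 54.1 in NTC, a log2 ratio of -1.89. The serine synthesis enzymes PSAT1 (38.9 against 106 FPKM, log2 ratio -1.42) and PHGDH (54.3 against 133 FPKM, log2 ratio -1.27) were lower as well. In ASNS, PSAT1 and ATF4 the shDIS3L2 library was the highest of the 3. GDF15, a secreted stress cytokine, did not pass (933 against 1664 FPKM, log2 ratio -0.83). Of the 23 genes 9 had ratios above 0, with the transcription factor ATF5 the highest among them, named after its values were seen (78.2 against 39.6 FPKM, log2 ratio 0.97). Of 23 chaperones and unfolded protein response genes of the endoplasmic reticulum, 2 were lower, P4HB (284 against 611 FPKM, log2 ratio -1.10) and CANX (68.0 against 144 FPKM, log2 ratio -1.07), and 1 was higher, SEL1L (14.8 against 6.72 FPKM, log2 ratio 1.03). Of 18 cytosolic heat shock genes, 2 were lower, the small heat shock protein HSPB8 (5.50 against 28.5 FPKM, log2 ratio -2.18) and HSPA4 (58.3 against 127 FPKM, log2 ratio -1.12), and 0 higher.

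NRF2 pathway genes and aldo-keto reductases, which handle oxidants and reactive carbonyls, were lower in shhnRNP U in 6 of 27, higher in 0 and in neither direction in 21, with a median of -0.53. TXNRD1, thioredoxin reductase, stood at 18.4 FPKM (16.8 to 20.01) in shhnRNP U, 78.7 (74.5 to 82.8) in shDIS3L2 and 24.9 in NTC, a log2 ratio of -2.04. HMOX1, haem oxygenase, stood at 42.1 FPKM (39.5 to 44.7) in shhnRNP U, 135 (129 to 142) in shDIS3L2 and 82.7 in NTC, a log2 ratio of -1.66. In both genes shDIS3L2 was the highest library. AKR1C1 stood at 36.4 FPKM (32.8 to 40.0) in shhnRNP U, 129.8 (124 to 136) in shDIS3L2 and 265 in NTC, a log2 ratio of -1.81, and there NTC was the highest. AKR1C2, a near-identical copy that can share reads with it, was lower at 6.66 against 23.7 FPKM, log2 ratio -1.69. AKR1B1, aldose reductase, was also lower (88.5 against 229 FPKM, log2 ratio -1.36). Ferritin heavy chain, FTH1, did not pass (1219 against 956 FPKM, log2 ratio 0.35).

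Of 15 genes of p53 and its targets, 3 were lower and 0 higher. GADD45A, a damage-induced regulator of growth arrest, stood at 4.998 FPKM (4.05 to 5.95) in shhnRNP U, 22.05 (19.9 to 24.2) in shDIS3L2 and 5.56 in NTC, a log2 ratio of -1.94. CCNG1 (12.9 against 38.0 FPKM, log2 ratio -1.49) and the cell cycle inhibitor CDKN1A (15.4 against 36.7 FPKM, log2 ratio -1.20) were lower too. The list median was -0.18, but 0.26 over the 11 loci with 1 name, like bounds and no overlap, where 2 were lower. Apoptosis regulators had 5 of 29 lower, 1 higher and 23 in neither direction, while their median was 0.10, on the other side of 0. Besides BCL2A1 and BIRC3, which are also NF-kB genes, the lower members were CFLAR, an inhibitor of caspase-8 (15.4 against 64.2 FPKM, log2 ratio -1.99), BID (21.9 against 60.1 FPKM, log2 ratio -1.41) and CASP9, the initiator caspase of the apoptosome (6.23 against 16.7 FPKM, log2 ratio -1.29). The lower members thus include both inhibitors and promoters of cell death.

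Immediate early transcription factors, which cells switch on within minutes of a stimulus, held a few genes with large ratios in either direction. Of 22 tested genes, 3 were higher in shhnRNP U, 3 were lower and 16 passed in neither direction (median 0.25). NR4A1, an orphan nuclear receptor (chromosome 12, 52416616 to 52453291), stood at 526 FPKM (506 to 547) in shhnRNP U, 34.5 (30.9 to 38.0) in shDIS3L2 and 89.9 in NTC, a log2 ratio of 3.89, and its locus overlapped another expressed gene. EGR1, a zinc finger factor (chromosome 5, 137801179 to 137805004), stood at 17.5 FPKM (16.5 to 18.6) in shhnRNP U, 1.89 (1.53 to 2.25) in shDIS3L2 and 3.67 in NTC, a log2 ratio of 2.68. KLF4, a Krüppel-like factor (chromosome 9, 110247133 to 110252763), stood at 1.75 FPKM (1.30 to 2.197) in shhnRNP U, 20.7 (19.2 to 22.2) in shDIS3L2 and 4.27 in NTC, a log2 ratio of -2.98. EGR1 was thus highest in shhnRNP U and KLF4 highest in shDIS3L2. FOSL2, a partner of JUN in AP-1, was higher at 27.6 FPKM (24.9 to 30.2) in shhnRNP U, 8.54 (7.45 to 9.63) in shDIS3L2 and 8.85 in NTC, a log2 ratio of 1.58. ATF3, a stress-induced factor on the list of decay-sensitive transcripts too, was lower at 7.52 FPKM (6.40 to 8.64) in shhnRNP U, 26.1 (24.0 to 28.1) in shDIS3L2 and 2.41 in NTC, a log2 ratio of -1.67. MYC, named after its values were seen, was lower at 21.1 against 43.3 FPKM, log2 ratio -1.005, just at the size rule. JUND, an AP-1 subunit, did not pass (261 against 144 FPKM, log2 ratio 0.86).

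The promoters of EGR1 and KLF4 are shown because these genes ran in opposite order although both hold the core TGACG of the cyclic AMP response element. They are the 250 bases before the RefSeq start (GRCh38.p14), read on the gene's strand, with TGACG, or its reverse complement CGTCA, in capitals. EGR1 lies at chr5:138465229-138465478 on the plus strand, with matches 135 to 131 and 66 to 62 bases before the start. KLF4 lies at chr9:107489770-107490019 on the minus strand, with matches 247 to 243 and 210 to 206 bases before the start.
EGR1: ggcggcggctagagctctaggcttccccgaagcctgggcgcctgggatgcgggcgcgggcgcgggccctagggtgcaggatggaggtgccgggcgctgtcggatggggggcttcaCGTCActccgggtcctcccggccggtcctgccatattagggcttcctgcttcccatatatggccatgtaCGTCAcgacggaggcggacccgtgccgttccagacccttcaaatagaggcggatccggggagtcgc
KLF4: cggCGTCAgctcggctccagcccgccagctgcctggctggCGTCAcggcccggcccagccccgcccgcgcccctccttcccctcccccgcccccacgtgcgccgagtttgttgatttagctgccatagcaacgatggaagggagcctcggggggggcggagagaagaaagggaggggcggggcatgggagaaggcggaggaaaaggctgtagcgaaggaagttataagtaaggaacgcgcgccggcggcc
This motif, searched on both strands, was in 21.7% of 27305 RefSeq promoters of this length. It was in 28.0% of 496 promoters of loci higher in shhnRNP U, 26.1% of 568 of lower loci and 30.9% of 5491 of loci in neither group. RefSeq promoters were matched for 6555 of 9406 tested loci with 1 name (69.7%). A match is a description of these letters and not of a bound factor.

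YAP and TEAD targets, which respond to cell tension and density, had 3 of 22 higher in shhnRNP U, 5 lower and 14 in neither direction, while their median was 0.40. ANKRD1, a muscle-type ankyrin repeat protein and common reporter of YAP activity, stood at 2.73 FPKM (2.17 to 3.28) in shhnRNP U, 20.05 (18.3 to 21.8) in shDIS3L2 and 1.73 in NTC, a log2 ratio of -2.50. Its RefSeq promoter is shown because it holds the TEAD core GGAATG 2 times in 250 bases (capitals, 220 to 215 and 128 to 123 bases before the start). It lies at chr10:90921088-90921337 on the minus strand (GRCh38.p14).
ANKRD1: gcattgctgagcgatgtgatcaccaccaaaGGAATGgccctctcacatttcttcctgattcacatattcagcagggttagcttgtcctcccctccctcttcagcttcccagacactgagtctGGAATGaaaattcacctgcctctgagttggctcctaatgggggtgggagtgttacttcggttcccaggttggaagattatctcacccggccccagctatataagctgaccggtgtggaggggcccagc
GGAATG, searched on both strands, was in 11.9% of all RefSeq promoters of this length, in 9.27% of those of higher loci, 10.2% of lower and 9.32% of the rest. TGFB2, a ligand of TGF-beta receptors, was lower at 2.39 against 7.83 FPKM, log2 ratio -1.38, as were CRIM1 (6.28 against 17.2 FPKM, log2 ratio -1.32), whose shhnRNP U interval of 0 to 14.9 was wide, and WWC1 (21.2 against 52.98 FPKM, log2 ratio -1.28). ARHGEF17, a guanine nucleotide exchange factor, was higher (9.01 against 2.88 FPKM, log2 ratio 1.37). Chosen after their values were seen, the other calls were TEAD4 (42.2 against 19.7 FPKM, log2 ratio 1.06) and GADD45B (279 against 136 FPKM, log2 ratio 1.03) as higher and DLC1, a GTPase-activating protein, as lower (1.19 against 3.43 FPKM, log2 ratio -1.02). CYR61, a matricellular protein and classical YAP target, did not pass at 465 in shhnRNP U and 298 in shDIS3L2. The members that passed therefore did not run in a common order.

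Other motifs were counted in the same windows, without a test. AP-1 (TGANTCA) was in 3.63% of higher, 4.40% of lower and 3.39% of the other loci, and in 6.596% of all RefSeq promoters. A lax NF-kB form, GGG and CC with 5 bases of any kind between, was in 72.4%, 70.1%, 71.5% and 53.7%, in the same order. The short cores of HNF1 (GTTAAT) were in 3.63%, 2.46%, 3.15% and 6.22%, and those of HNF4 (CAAAGT) in 6.05%, 7.75%, 6.36% and 10.4%. All were searched on both strands, and none of the motif strings contains another.

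Of 19 ERK phosphatases and feedback genes, 1 was higher and 1 lower. DUSP3, a phosphatase of ERK and JNK, stood at 15.2 FPKM (14.1 to 16.4) in shhnRNP U, 75.7 (71.5 to 79.8) in shDIS3L2 and 43.2 in NTC, a log2 ratio of -2.24. SPRED2, an inhibitor of RAS to ERK signalling, stood at 22.1 FPKM (20.3 to 23.9) in shhnRNP U, 8.76 (7.69 to 9.83) in shDIS3L2 and 4.16 in NTC, a log2 ratio of 1.24. DUSP5, a nuclear ERK phosphatase, was near even at 53.3 in shhnRNP U and 61.9 in shDIS3L2, although NTC was at 8.08. Of 6 tested EGF family genes 0 passed in either direction. EGFR had the largest ratio of them, 0.97, at 64.6 in shhnRNP U and 32.4 in shDIS3L2.

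Cytosolic ribosomal protein genes had mostly small ratios below 0. Of 77, 67 had a ratio below 0 and 10 above, 9 were lower past the size rule, 0 were higher and 68 passed in neither direction, with a median of -0.46. In 61 of 77 the intervals did not overlap with shhnRNP U as the lower library, against 5 in the other direction, while over all tested loci the intervals lay apart in 27.8% as lower and 30.9% as higher. Under the size rule the list's share of lower calls is near that of all loci, 8.48%. RPS27A, a fusion of ubiquitin with a small-subunit protein, stood at 728 FPKM (701 to 755) in shhnRNP U, 2017 (1889 to 2146) in shDIS3L2 and 1545 in NTC, a log2 ratio of -1.47. RPL38, a large-subunit protein, stood at 832 FPKM (791 to 873) in shhnRNP U, 2081 (2004 to 2158) in shDIS3L2 and 1616 in NTC, a log2 ratio of -1.32. RPL22 was lower too (397 against 934 FPKM, log2 ratio -1.23), and so was RPLP2, of the ribosomal stalk (1294 against 3306 FPKM, log2 ratio -1.35). RPL17, merged with a neighbouring gene and 3 small nucleolar RNAs, had the lowest ratio of the list (282 against 1671 FPKM, log2 ratio -2.56). The most abundant members did not pass, RPS29 at 8114 in shhnRNP U and 13732 in shDIS3L2 and RPS27 at 8795 in shhnRNP U and 10340.5 in shDIS3L2. After the GC decile medians were subtracted the list median was -0.47. Ribosomal protein genes have processed pseudogenes of near-identical sequence, and the sources used here do not say how reads that fit several copies were counted.

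Of 69 mitochondrial ribosomal protein genes, 8 were lower, 3 were higher and 58 passed in neither direction, around a median of -0.06. MRPS25 stood at 9.97 FPKM (9.04 to 10.9) in shhnRNP U, 56.8 (51.4 to 62.2) in shDIS3L2 and 9.41 in NTC, a log2 ratio of -2.40, and MRPS36 at 22.7 FPKM (16.9 to 28.6) in shhnRNP U, 163 (131 to 195) in shDIS3L2 and 22.8 in NTC, a log2 ratio of -2.79. MRPL42 was higher (43.9 against 14.9 FPKM, log2 ratio 1.497), and so were MRPL17 (69.4 against 34.0 FPKM, log2 ratio 1.01) and MRPL49 (167 against 80.1 FPKM, log2 ratio 1.05), named after their values were seen. In MRPS25 and MRPS36 the shhnRNP U interval contained the NTC level. Of 72 nuclear-encoded subunits of oxidative phosphorylation, 3 were lower, 1 was higher and 68 passed in neither direction (median -0.23). COX7A2, of cytochrome c oxidase, stood at 288 FPKM (271 to 304) in shhnRNP U, 854 (814 to 894) in shDIS3L2 and 392 in NTC, a log2 ratio of -1.57. NDUFA3 and UQCRB were lower too (78.1 against 202 FPKM, log2 ratio -1.36 and 160.1 against 343 FPKM, log2 ratio -1.09), and NDUFS7 was higher (219 against 109 FPKM, log2 ratio 1.01). Translation initiation factors had 3 of 40 lower and 1 higher (median -0.19). EIF2S1, the alpha subunit of eIF2, stood at 17.0 FPKM (0 to 34.5) in shhnRNP U, 126 (115 to 136) in shDIS3L2 and 132 in NTC, a log2 ratio of -2.82, with a shhnRNP U interval that reached 0 and an overlapping gene. EIF2S2, the beta subunit, was lower as well (87.0 against 181 FPKM, log2 ratio -1.05). PABPC1, the poly(A)-binding protein, stood at 256 FPKM (248 to 264) in shhnRNP U, 587 (567 to 606) in shDIS3L2 and 222 in NTC, a log2 ratio of -1.19. EIF4A3, a core of the exon junction complex, was higher (159 against 77.0 FPKM, log2 ratio 1.04).

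Of 34 proteasome subunits, 5 were lower, 0 were higher and 29 passed in neither direction, while the median was -0.05, against 0.04 over all tested loci. PSMA5, an alpha-ring subunit, stood at 197 FPKM (187 to 207) in shhnRNP U, 557 (526 to 588) in shDIS3L2 and 411 in NTC, a log2 ratio of -1.49. PSMA2, merged with a second gene, stood at 105 FPKM (99.3 to 111) in shhnRNP U, 542 (518 to 565) in shDIS3L2 and 102 in NTC, a log2 ratio of -2.35. PSME2 of the immunoproteasome activator (55.9 against 219 FPKM, log2 ratio -1.95), PSMD1 (44.0 against 116 FPKM, log2 ratio -1.37) and PSME4 (18.3 against 47.3 FPKM, log2 ratio -1.32) were lower as well. PSMB6 and PSMB7 were near even (723 against 772 FPKM, log2 ratio -0.09 and 709.6 against 778 FPKM, log2 ratio -0.13).

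Histone genes had 8 of 32 higher in shhnRNP U, 4 lower and 20 in neither direction, although their median was -0.16. The higher ones included the replication-independent linker histones. H1FX stood at 427 FPKM (408 to 447) in shhnRNP U, 94.4 (88.9 to 99.9) in shDIS3L2 and 249.7 in NTC, a log2 ratio of 2.17. H1F0, typical of differentiated cells, stood at 405 FPKM (399 to 411) in shhnRNP U, 91.6 (88.6 to 94.5) in shDIS3L2 and 265 in NTC, a log2 ratio of 2.13. H2AFX, the variant phosphorylated at DNA breaks and added after its values were seen, stood at 480.3 FPKM (461 to 499.6) in shhnRNP U and 164 (157 to 172) in shDIS3L2, a log2 ratio of 1.54. These 3 loci carried 1 name, and none overlapped another expressed gene. HIST1H3B, a replication-dependent H3 gene, was lower (0.859 against 28.1 FPKM, log2 ratio -3.97), but its assembled bounds differed between the libraries. HIST2H2AC was higher (5.93 against 0.764 FPKM, log2 ratio 1.97), and the merged HIST1H3D lower (2.80 against 12.5 FPKM, log2 ratio -1.82). HIST1H2BJ (11.6 against 27.6 FPKM, log2 ratio -1.19) and HIST1H2BK (75.4 against 186 FPKM, log2 ratio -1.29), added after their values were seen, were the other lower genes. Replication-dependent histone genes lie in clusters of similar copies and lack poly(A) tails, so their values are less certain.

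DNA replication and S phase genes had 3 of 43 higher, 1 lower and 39 in neither direction, with a median of 0.39, and 32 of 43 had a ratio above 0. Their share of higher calls, 6.98%, lay near the 7.76% over all tested loci. GINS1, of the replicative helicase, stood at 22.2 FPKM (20.7 to 23.8) in shhnRNP U, 9.51 (8.47 to 10.6) in shDIS3L2 and 14.7 in NTC, a log2 ratio of 1.14. MCM2, of the same helicase, was higher (88.9 against 41.7 FPKM, log2 ratio 1.08), as was RFC5, a clamp loader subunit (43.1 against 20.8 FPKM, log2 ratio 1.02). MCM2 and RFC5 overlapped another expressed gene. Of 45 mitosis genes, 3 were higher (6.67%, also near the share over all tested loci) and 1 lower, around a median of 0.04. PLK1, a mitotic kinase, stood at 169 FPKM (161 to 177) in shhnRNP U, 74.7 (70.5 to 78.9) in shDIS3L2 and 111 in NTC, a log2 ratio of 1.17. NCAPD2, of condensin, and INCENP, of the chromosomal passenger complex, were higher (65.2 against 26.0 FPKM, log2 ratio 1.30 and 35.6 against 16.9 FPKM, log2 ratio 1.03), and RACGAP1, which acts in cytokinesis, was lower (11.9 against 30.0 FPKM, log2 ratio -1.27).

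Glycolysis and hypoxia genes were higher in shhnRNP U in 5 of 27, lower in 1 and in neither direction in 21 (median 0.35). SLC2A3, a glucose transporter, stood at 222 FPKM (213 to 232) in shhnRNP U, 49.1 (46.6 to 51.6) in shDIS3L2 and 104 in NTC, a log2 ratio of 2.16. HK1, hexokinase, stood at 19.1 FPKM (16.9 to 21.2) in shhnRNP U, 5.40 (4.49 to 6.31) in shDIS3L2 and 8.78 in NTC, a log2 ratio of 1.65. PFKL, the liver form of phosphofructokinase, stood at 67.0 FPKM (63.5 to 70.5) in shhnRNP U, 22.02 (20.4 to 23.6) in shDIS3L2 and 81.8 in NTC, a log2 ratio of 1.56. These genes act in uptake, phosphorylation and the phosphofructokinase step of glucose use. They are named for their large ratios, and most of the list passed in neither direction. BNIP3L, a mitophagy receptor, was higher as well (15.2 against 5.29 FPKM, log2 ratio 1.37), as was the muscle phosphofructokinase PFKM, added after its values were seen (9.42 against 3.47 FPKM, log2 ratio 1.22), and the lactate dehydrogenase gene LDHB was lower (96.2 against 239 FPKM, log2 ratio -1.30). The abundant enzymes GAPDH (3939.8 against 3194 FPKM, log2 ratio 0.30) and ALDOA (2425 against 1655 FPKM, log2 ratio 0.55) did not pass. Of 25 genes of cholesterol synthesis and uptake, 1 was higher, the transcription factor gene SREBF1 (50.2 against 21.6 FPKM, log2 ratio 1.18), and 1 lower, MVD of the mevalonate pathway (21.9 against 62.5 FPKM, log2 ratio -1.47).

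The list of small nucleolar RNA hosts and of transcripts that nonsense-mediated decay is known to remove was lower in shhnRNP U in 8 of 21, higher in 1 and in neither direction in 12, with a median of -0.58. SNHG6 stood at 268 FPKM (254 to 283) in shhnRNP U, 785 (739 to 831) in shDIS3L2 and 269 in NTC, a log2 ratio of -1.54, merged with the small nucleolar RNA it hosts. SNHG8 stood at 41.4 FPKM (36.2 to 46.7) in shhnRNP U, 123 (109 to 136) in shDIS3L2 and 86.7 in NTC, a log2 ratio of -1.54. SNHG9 stood at 10.9 against 61.4 FPKM, log2 ratio -2.39, with a wide interval of 1.99 to 19.9 in shhnRNP U. Of the other 5 lower members, ATF3, ATF4, GADD45A and CDKN1A are stress genes described above and SNHG11 is a host gene, named after its values were seen (56.2 against 121 FPKM, log2 ratio -1.10), so 4 of the 8 lower members are hosts. The higher member was GADD45B. The abundant hosts SNHG5 (364 against 534 FPKM, log2 ratio -0.55) and ZFAS1 (334 against 498 FPKM, log2 ratio -0.58) did not pass, though both ratios lay below 0.

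Of 5 tested structured small RNAs, 1 passed. RMRP, the RNA of the mitochondrial RNA processing ribonuclease, stood at 166 FPKM (128 to 205) in shhnRNP U, 15.5 (4.80 to 26.1) in shDIS3L2 and 26.0 in NTC, a log2 ratio of 3.34. RN7SL1, of the signal recognition particle, had intervals apart at 615 in shhnRNP U and 986 in shDIS3L2 but a ratio of -0.68, and the paralogue RN7SL2 was near even (400.4 against 379 FPKM, log2 ratio 0.08). Of 10 long noncoding RNAs, MIR22HG was lower (3.65 against 27.5 FPKM, log2 ratio -2.62, overlapping another gene), and NEAT1, the scaffold of paraspeckles (9.34 against 2.81 FPKM, log2 ratio 1.44), and the imprinted H19 (5.27 against 1.54 FPKM, log2 ratio 1.30) were higher.

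RNA-binding proteins and the decay machinery had calls in both directions. Of 40 hnRNP proteins and relatives 3 were higher and 3 lower, with a median of -0.16. These shares lay close to those over all tested loci, 7.76% higher and 8.48% lower. Besides HNRNPU, EWSR1, of the FET family, was lower at 48.6 FPKM (45.9 to 51.3) in shhnRNP U, 220.0 (212 to 228) in shDIS3L2 and 219.7 in NTC, a log2 ratio of -2.16, in a locus that overlapped another gene. RBFOX2, a splicing regulator, stood at 28.1 FPKM (26.1 to 30.1) in shhnRNP U, 9.42 (8.64 to 10.2) in shDIS3L2 and 14.3 in NTC, a log2 ratio of 1.48, and QKI, a further one, at 19.4 FPKM (18.1 to 20.8) in shhnRNP U, 7.82 (6.82 to 8.82) in shDIS3L2 and 16.3 in NTC, a log2 ratio of 1.21. HNRNPL was higher, merged with ECH1 (851 against 375 FPKM, log2 ratio 1.18), and MBNL2 lower (4.22 against 10.3 FPKM, log2 ratio -1.12). The loci that hold HNRNPH2 and HNRNPA1, the most abundant that did not pass, were near even (2012 against 2431 FPKM, log2 ratio -0.27 and 718 against 634 FPKM, log2 ratio 0.18). Their levels can include those of further names. Only 22 of the 40 loci had 1 name, like bounds and no overlap. Of 21 SR proteins and kinases, 4 were lower and 1 was higher (median -0.27). Their share of lower calls was larger than the 8.48% over all tested loci. CLK1, a kinase of SR proteins, stood at 14.01 FPKM (12.3 to 15.7) in shhnRNP U, 48.02 (42.1 to 53.9) in shDIS3L2 and 6.85 in NTC, a log2 ratio of -1.71. SRSF5 was lower (41.1 against 124 FPKM, log2 ratio -1.57), as were TRA2A (12.5 against 26.2 FPKM, log2 ratio -1.01) and CLK3 (16.9 against 35.2 FPKM, log2 ratio -1.01), and the kinase SRPK2 was higher (23.9 against 8.12 FPKM, log2 ratio 1.45).

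Core spliceosome subunits had 2 of 40 higher and 4 lower (median 0.07). These are 5% and 10%, against 7.76% and 8.48% over all tested loci. U2AF1, which recognises the 3′ splice site, stood at 179.6 FPKM (171 to 188) in shhnRNP U, 459.9 (440.3 to 479.5) in shDIS3L2 and 302 in NTC, a log2 ratio of -1.35. SNRPF, an Sm ring protein, stood at 256 FPKM (236 to 276) in shhnRNP U, 74.8 (70.0 to 79.6) in shDIS3L2 and 61.4 in NTC, a log2 ratio of 1.76, and SF3A2, of the U2 particle and merged with AMH, was higher at 129 against 47.1 FPKM, log2 ratio 1.44. LSM5 (71.5 against 169.8 FPKM, log2 ratio -1.24), SNRPD3 (77.3 against 178 FPKM, log2 ratio -1.19) and, added after its values were seen, DHX38 (25.3 against 52.2 FPKM, log2 ratio -1.01) were lower. RNA decay factors and terminal uridylyltransferases had 4 of 46 lower and DIS3L2 itself as the higher member (median -0.13). The share of lower calls, 8.70%, lay near the 8.48% over all tested loci. SMG5, of nonsense-mediated decay, stood at 28.6 FPKM (26.6 to 30.5) in shhnRNP U, 85.1 (81.0 to 89.1) in shDIS3L2 and 46.7 in NTC, a log2 ratio of -1.54. EXOSC2, of the RNA exosome, stood at 7.27 FPKM (6.28 to 8.26) in shhnRNP U, 22.4 (20.6 to 24.2) in shDIS3L2 and 20.4 in NTC, a log2 ratio of -1.502. The terminal nucleotidyltransferase PAPD4 was lower as well (2.28 against 9.13 FPKM, log2 ratio -1.63). The loci that hold the uridylyltransferase gene TUT1 (1600.1 against 1642 FPKM, log2 ratio -0.04) and EXOSC3 (685 against 1041 FPKM, log2 ratio -0.60) did not pass. Their levels can include those of further names and cannot be assigned to the named genes alone. Only 27 of the 46 loci had 1 name, like bounds and no overlap.

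In signalling lists the calls split about evenly. Of 27 TGF-beta, activin and BMP genes, 3 were lower and 2 higher (median -0.15). FST, follistatin, which binds activin, stood at 11.6 FPKM (10.5 to 12.7) in shhnRNP U, 73.8 (70.1 to 77.4) in shDIS3L2 and 41.9 in NTC, a log2 ratio of -2.57. INHBB, an activin subunit, was lower too (31.5 against 87.2 FPKM, log2 ratio -1.44), as was TGFB2, described above. SMAD4, the common SMAD, merged with a second gene, was higher (21.2 against 7.97 FPKM, log2 ratio 1.31), and so was the corepressor SKI (15.7 against 6.97 FPKM, log2 ratio 1.06). Of 21 Wnt genes, 2 were higher, the ubiquitin ligase ZNRF3 (14.7 against 5.74 FPKM, log2 ratio 1.22) and the receptor FZD1 (5.14 against 1.98 FPKM, log2 ratio 1.04), and 2 lower, the secreted DKK3 (6.18 against 15.3 FPKM, log2 ratio -1.18) and the transcription factor LEF1 (12.3 against 26.8 FPKM, log2 ratio -1.07). Of 13 interferon-stimulated genes 2 were higher, UBE2L6 and IFI6 (8.66 against 3.53 FPKM, log2 ratio 1.09 and 23.5 against 11.2 FPKM, log2 ratio 1.01), and 2 lower, ISG20 and OAS3 (26.2 against 65.7 FPKM, log2 ratio -1.29 and 1.82 against 4.996 FPKM, log2 ratio -1.09). Among 6 metallothionein and zinc genes MT1X was higher (571 against 274 FPKM, log2 ratio 1.06), while MT2A did not pass (1817 against 2342 FPKM, log2 ratio -0.37), and MT1 genes are similar copies. Of 13 cohesin genes and CTCF, the loader subunit MAU2 was higher (33.0 against 12.6 FPKM, log2 ratio 1.33) and the release factor WAPAL lower (1.08 against 3.91 FPKM, log2 ratio -1.24).

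X-linked cancer-testis genes, which tumours express and most adult tissues other than testis do not, had the highest median of the lists, 0.95. Of 15 tested, 6 were higher in shhnRNP U, 0 were lower and 9 passed in neither direction. MAGEC2 stood at 12.97 FPKM (11.8 to 14.1) in shhnRNP U, 2.14 (1.64 to 2.63) in shDIS3L2 and 0.997 in NTC, a log2 ratio of 2.15. MAGEA4 stood at 860.0 FPKM (842 to 878) in shhnRNP U, 375 (358 to 391) in shDIS3L2 and 672 in NTC, a log2 ratio of 1.20. VCX3A, VCX3B, VCX and VCX2 are near-identical copies that can share reads, so their calls are not separate. VCX3A stood at 24.5 FPKM (21.4 to 27.5) in shhnRNP U, 5.22 (3.84 to 6.59) in shDIS3L2 and 1.20 in NTC, a log2 ratio of 2.04, and VCX3B at 26.3 in shhnRNP U and 6.002 in shDIS3L2. For the VCX genes shhnRNP U was the highest of the 3 libraries and NTC the lowest. CTAG2 and MAGEA6 were abundant and near even (579.6 against 526 FPKM, log2 ratio 0.14 and 146 against 153 FPKM, log2 ratio -0.06).

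Among single-name loci with at least 5 FPKM in the higher library, the 15 highest ratios included APOC3, APOA1, ORM1, AHSG, ORM2, NR4A1 and EGR1, already described, and 3 pseudogenes or clone-named loci that are left out here. C1orf64, a gene linked to oestrogen receptor signalling (chromosome 1, 16330709 to 16335302), had the highest, at 38.3 FPKM (32.9 to 43.8) in shhnRNP U, 0.980 (0.707 to 1.25) in shDIS3L2 and 0.978 in NTC, a log2 ratio of 4.31. ALG14, a subunit of the enzyme that adds the second sugar of N-glycan precursors (chromosome 1, 95439963 to 95538524), stood at 24.96 FPKM (20.6 to 29.3) in shhnRNP U, 2.14 (1.31 to 2.98) in shDIS3L2 and 2.35 in NTC, a log2 ratio of 3.05. FBXL5, the iron-sensing subunit of a ubiquitin ligase, stood at 85.2 FPKM (77.8 to 92.7) in shhnRNP U, 8.95 (7.71 to 10.2) in shDIS3L2 and 45.3 in NTC, a log2 ratio of 3.11, and overlapped another gene. RTN4RL2, a Nogo receptor relative, and CYB5R4, a cytochrome b5 reductase, followed (40.5 against 4.62 FPKM, log2 ratio 2.89 and 14.3 against 1.29 FPKM, log2 ratio 2.74). For C1orf64 and ALG14 the NTC level lay close to that of shDIS3L2, and shhnRNP U was the library that stood out.

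The 15 lowest included KLF4, CLU, FLNA, ANXA3 and HIST1H3B. PON2, an antioxidant lactonase (chromosome 7, 95034175 to 95064510), stood at 20.9 FPKM (18.8 to 23.0) in shhnRNP U, 244 (232 to 255) in shDIS3L2 and 142 in NTC, a log2 ratio of -3.48. MCCC2, of leucine breakdown in mitochondria (chromosome 5, 70883115 to 70954531), stood at 1.85 FPKM (1.29 to 2.40) in shhnRNP U, 28.2 (26.5 to 29.9) in shDIS3L2 and 26.8 in NTC, a log2 ratio of -3.36. VAT1L, on chromosome 16, stood at 4.32 FPKM (3.72 to 4.92) in shhnRNP U, 51.6 (48.8 to 54.3) in shDIS3L2 and 15.8 in NTC, a log2 ratio of -3.30. CA2, a carbonic anhydrase, stood at 8.35 FPKM (7.18 to 9.52) in shhnRNP U, 69.8 (65.6 to 74.1) in shDIS3L2 and 99.3 in NTC, a log2 ratio of -2.92. PEG10, an imprinted gene derived from a retrotransposon and raised in liver cancer, stood at 17.1 FPKM (16.1 to 18.2) in shhnRNP U, 135 (127 to 143) in shDIS3L2 and 66.2 in NTC, a log2 ratio of -2.90. NRP2, a neuropilin receptor for semaphorins, was lower (2.05 against 21.8 FPKM, log2 ratio -2.90), as were SPOCD1 (0.517 against 11.2 FPKM, log2 ratio -3.01), CCDC28B (3.70 against 35.5 FPKM, log2 ratio -2.96) and TRNAU1AP, a factor of selenocysteine incorporation that overlapped another gene (3.60 against 56.5 FPKM, log2 ratio -3.64). DNAJC7, a co-chaperone, had the lowest ratio of all, -5.37, but its locus spanned 40136324 to 40138085 on chromosome 17 in shhnRNP U and 40128451 to 40173394 in shDIS3L2, so this ratio does not compare like with like. In PON2, MCCC2, CA2 and PEG10 shhnRNP U was the lowest of the 3 libraries.

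Genes at exactly 0 in a library were set apart, since such a value can be a failed estimate, and no fold is given for them. At 0 in shhnRNP U and at 5 FPKM or more in shDIS3L2 were 174 loci, of which 131 overlapped another gene. NTC held a value for 170 of them, at 0 in 82 and at 5 FPKM or more in 80. In the other direction 135 loci were at 0 in shDIS3L2, 98 of them overlapping, with NTC at 0 in 54 and at 5 or more in 71 of 133. Among those listed at 0 in shhnRNP U were ANAPC15, of the anaphase-promoting complex (361 FPKM in shDIS3L2 and listed at 0 in NTC), EMC6, which inserts proteins into the endoplasmic reticulum membrane (275 in shDIS3L2 and 366 in NTC), MRPL27 (205 and 151) and POLR2I, a subunit of RNA polymerase II (199 and 101). Listed at 0 in shDIS3L2 were ARPC5L, of the Arp2/3 complex (141 in shhnRNP U, 0 in NTC), TSPAN4 (140 and 170), NDUFAF3, an assembly factor of complex I (121 and 132), PNPLA2, the triglyceride lipase (88.6 and 0), and XRCC3, of homologous recombination (81.4 and 102).

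The calls moved with the base composition of the transcripts. Over 9686 tested loci with a GC value (90.4% of those tested and 89.1% of those called), GC content and the log2 ratio had a Spearman correlation of 0.19, across genes that are not independent. In the decile of lowest GC 5.68% of loci were higher and 9.39% lower in shhnRNP U, and in the decile of highest GC 14.4% were higher and 4.02% lower. The median GC was 53.7% in higher loci, 45.9% in lower loci and 48.3% in the rest. Short genes leaned the same way: in the decile of shortest loci 14.6% were higher and 7.18% lower, and of 465 loci with 1 exon 14.6% were higher and 4.52% lower. Whether composition or length has a part in the ratios of single genes was not tested. With the median of each GC decile subtracted, an alternative added after the data were seen, 600 loci (6.19%) were higher and 865 (8.93%) lower, and all 13 leaning lists kept their direction.

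**Figure D5:**
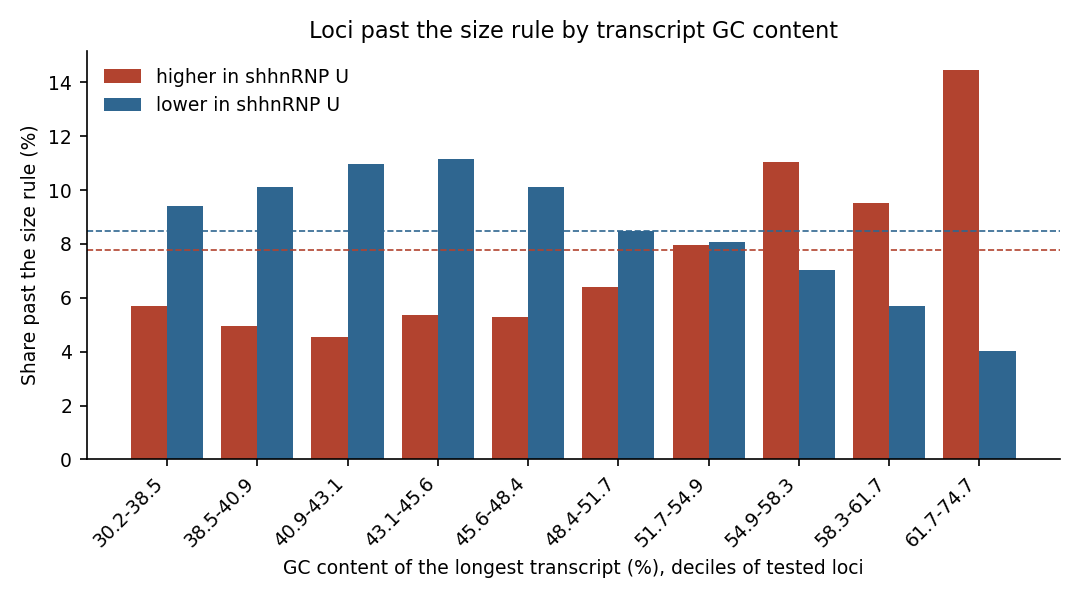
Share of tested loci past the size rule (y axis, percent) in each decile of transcript GC content (x axis, percent), red for higher and blue for lower in shhnRNP U, with dashed lines at the shares over all tested loci. The red share is 5.68% in the lowest decile and 14.4% in the highest, and the blue share 9.39% and 4.02%.

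Markers of cell types were read as a check on the label. All 8 hepatocyte markers had levels above 0 in every library, with a summed level of 6964 FPKM in shhnRNP U, 2952 in shDIS3L2 and 11850.4 in NTC, most of it SERPINA1. Of these 8, 3 were higher, 1 was lower and 4 passed in neither direction. Of the biliary markers, KRT7 and SOX9 (3.09 against 10.04 FPKM, log2 ratio -1.43) were lower in shhnRNP U and EPCAM was near even (77.7 against 88.1 FPKM, log2 ratio -0.18). Their summed level was 87.5 in shhnRNP U, 133 in shDIS3L2 and 82.0 in NTC. In bulk RNA fewer cells of a type and less RNA per cell cannot be told apart. Of 10 fibroblast and stellate cell markers, 8 lay under 1 FPKM in every library, and their summed level was 11.001 FPKM in shhnRNP U, 23.5 in shDIS3L2 and 16.7 in NTC. PDGFRA, the one that passed, was merged with FIP1L1 (8.52 against 20.2 FPKM, log2 ratio -1.15). This merged locus made up most of the summed level in both knockdown libraries, so that sum cannot be assigned to fibroblast markers alone. All 6 endothelial markers lay under 1 FPKM in every library and were at 0 in NTC and shDIS3L2. Of 8 blood and immune markers 5 lay under 1 FPKM in every library, while HBA1 (44.9 against 12.02 FPKM, log2 ratio 1.82), the near-identical HBA2 (36.2 against 9.99 FPKM, log2 ratio 1.76) and LYZ (70.8 against 33.5 FPKM, log2 ratio 1.06) were higher in shhnRNP U. The part of any of these in the ratios above was not tested.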

How the data were processed

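RNA from PLC cells was sequenced in 3 libraries, of which shhnRNP U and shDIS3L2 were compared, with 1 library per group. Per the submitters' processing notes, the tools used were TopHat2 2.0.12, Cufflinks 2.2.1 and the genome build hg19. Per the file headers, the authors deposited for each library a Cufflinks table of genes with FPKM, a lower and an upper bound and an estimation status, and the level of that interval is not stated there. Each library was assembled on its own, so neighbouring genes can be merged under several names. Strand and the treatment of reads that fit several places are not stated either, so overlapping genes and near-identical copies are uncertain.

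Names were matched between libraries where their loci overlapped, and loci with an estimation status other than OK were left out (4 in shhnRNP U, 0 in shDIS3L2). Of 14616 names at 1 FPKM or more in either knockdown, 650 had no matched locus. A locus was tested with a mean of at least 1 FPKM and a value above 0 in both. The ratio was the log2 of FPKM plus 1 in shhnRNP U over shDIS3L2, and it was called at 1 or more either way with intervals that did not overlap. Such a ratio understates differences of genes with low levels. With 1 library per group no p-value was computed. Like bounds means that the loci of both libraries shared at least 90% of their joint length. Depth was estimated from the deposited FPKM and intervals of 42 (shhnRNP U) and 44 (shDIS3L2) single-exon genes, taking the upper bound to lie 2 counting errors above the level, with interquartile ranges of 16.4 to 20.1 M and 16.6 to 18.4 M fragments. The deposited intervals reached a median of 34.7% to either side of levels of 1 to 5 FPKM in shhnRNP U and 5.22% at 50 or more (36.8% and 5.33% in shDIS3L2).

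Named are the targets and RAC1, the 15 highest and 15 lowest ratios (at least 5 FPKM in the higher library, a locus of at least 300 bases and 1 name), up to 5 called members of each list with the largest ratios and up to 2 abundant members that were not called, and the genes with the highest levels among those listed at 0. Genes of unsure function were left out, a few called genes are not reported here, and genes beyond the rule are marked. The members and lists were chosen with earlier results of these data known. GC content and exon number came from the longest GENCODE v29 transcript of each symbol, and promoters from RefSeq (GRCh38.p14). The comparison was tested on simulated data and run in Python 3.11.15 with numpy 2.4.6, pandas 2.3.3 and scipy 1.17.1. Alternatives covered the pseudocount, the filter, scaling, intervals, size, locus overlap, values of 0, matching and, added after the data were seen, GC content.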

Additional observations from a re-analysis of the deposited data

How the results depend on the processing

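The count of 1741 loci past the size rule (832 higher, 909 lower) moved most with the rule itself. With a pseudocount of 5 it was 828 (342 higher, 486 lower), at a ratio of 1.5-fold 3860 (1999 and 1861) and at a log2 ratio of 2 it was 183 (71 and 112). Over the 6881 loci with 1 name, like bounds and no overlap it was 1102 (501 and 601), with fewer loci tested. The other alternatives stayed within 1.5 times: a pseudocount of 0.1, no filter, a mean of at least 5 FPKM, rescaling by the median of ratios (748 and 966), no interval criterion, values of 0 included, matching by name only, and GC centring (600 and 865). The 13 leaning lists kept their direction under all 12 alternatives run, but not always at least 5 calls. Over the loci with 1 name, like bounds and no overlap, 4 NRF2 genes, 4 apoptosis regulators and 3 proteasome subunits were lower. There 4 glycolysis and hypoxia genes were higher, and the proteasome median was 0.04. At a log2 ratio of 2, RPL17, PSMA2 and SLC2A3 were the only calls of their lists in the leaning direction. After rescaling 237 named genes kept their call and 12 no longer passed, among them EIF4A3, FOXA3, GADD45B, H3F3B, HIST3H2A, IFI6, INCENP, MRPL17, NDUFS7, RFC5 and SEL1L. With a pseudocount of 5, 179 of these named genes kept their call and 70 no longer passed, and with 0.1 all of them kept it. The 309 loci listed at 0 became 681 when at least 1 FPKM was asked of the other library, and 255 with loci of at least 300 bases and 1 name. No paired analysis was possible because each group had 1 library. Depth limits genes of 1 to 5 FPKM, where the intervals are wide.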

Other observations

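Groups of genes outside the lists above were looked at after their values were seen and are given as values only. Zinc finger genes with names that start with ZNF, most of them transcription factors, had 24 of 219 tested higher in shhnRNP U and 6 lower. These are 10.96% and 2.74%, against 7.76% and 8.48% over all tested loci, with a median log2 ratio of 0.22 (0.18 after GC centring). ZNF98 stood at 18.7 FPKM in shhnRNP U and 2.58 in shDIS3L2, a log2 ratio of 2.47. ZNF263 stood at 52.2 and 8.98 FPKM, a log2 ratio of 2.41. ZNF287 stood at 9.92 and 1.11 FPKM, a log2 ratio of 2.37. ZNF259, also called ZPR1 and not of the transcription factor family, was lower, at 9.01 and 57.0 FPKM, a log2 ratio of -2.54. The 89 ZNF genes on chromosome 19, where they lie in clusters, had 9 higher (10.1%), 2 lower (2.25%) and a median of 0.33 (0.35 after GC centring). The 130 elsewhere had 15 higher (11.5%), 4 lower (3.08%) and a median of 0.12 (0.06 after GC centring).

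Chromosome 19 as a whole had 93 of 750 tested loci higher (12.4%) and 26 lower (3.47%), with a median of 0.32 and a median GC content of 59.3%. Its 654 loci without ZNF names had a median of 0.31, which was 0.09 after GC centring, while that of its ZNF genes did not shrink. Long intergenic noncoding RNAs with LINC names were higher in 8 of 55 (14.5%) and lower in 1 (1.82%), with a median of 0.27 (0.18 after GC centring). LINC00847 stood at 29.6 FPKM in shhnRNP U and 5.35 in shDIS3L2, a log2 ratio of 2.27. The part of GC content in these values beyond the decile medians was not tested.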
